A study of Caenorhabditis elegans with 4 samples.

Results

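The sites described here are the isolated HTZ-1 sites of the C. elegans embryo, those at which a called HTZ-1 peak had no other called peak on the same chromosome within 20000 bp on either side. They were chosen from the series-wide list of 7546 peaks by the distance from edge to edge. The first and last peak of each chromosome, 12 in all, have a neighbour on 1 side only and were left out. Of the 7534 eligible peaks, 381 were isolated, which is 5.06%, and 7153 had a closer neighbour. Among the latter, 2179 had a neighbour within 20000 bp on 1 side only and 4974 on both sides. The choice rests on peak positions in the series-wide list. Width, score and overlap with the replicate lists come from the same ChIP libraries, so differences between isolated sites and other peaks are descriptions, with no test.

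HTZ-1 is the worm form of H2A.Z, a histone variant that takes the place of H2A in some nucleosomes. In many organisms H2A.Z sits in the nucleosomes beside transcription start sites and at some enhancers, and chromatin remodelling complexes of the SWR1 type put it there. Genes of C. elegans are closely packed and many are arranged in operons.

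The material was the wild-type N2 strain, grown at 20 °C and harvested as embryos of mixed stages and both sexes. Embryos from liquid culture were fixed with 2% formaldehyde for 30 min. HTZ-1 was precipitated with an affinity-purified rabbit antibody against the N-terminus of the protein, in 2 ChIP samples, and 2 input samples carry the same replicate numbers. The input samples were not analysed here. Each ChIP replicate has its own peak list, and the series-wide list is taken here to draw on both. Whole embryos were pooled, so a site occupied in few cells and a site weakly occupied in most cells cannot be told apart. The read depth is unknown, as the lists give no counts. Nothing in the labels states that the replicates were separate cultures, so their spread may be technical. All positions are 1-based on WormBase WS220. Genes near these sites were not analysed here, for want of an annotation on the same assembly.

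Isolated sites lay mainly on chromosomes V and X. V held 106 of the 381 (27.8%, exact 95% interval 23.4% to 32.6%) and X held 101 (26.5%, 22.1% to 31.2%), whereas 14.6% and 9.80% of all eligible peaks lay there. IV held 60 isolated sites, II held 51, I held 34 and III held 29. These intervals account for counting error alone, and peaks near each other are not independent. V carries large families of chemoreceptor genes, and X is the chromosome on which dosage compensation acts in hermaphrodites.

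Seen from each chromosome, the share of its peaks that were isolated was 13.7% on X (11.3% to 16.4%) and 9.65% on V (7.97% to 11.6%). It was 4.44% on IV and 4.41% on II. On I and III it was 1.99% and 1.95%, with upper bounds of 2.77% and 2.79%. Isolation depends on how densely peaks lie, and the order of these shares is close to the reverse of the order of peak density, which ran from 41.9 eligible peaks per Mb on X to 113 on I. Per Mb of chromosome the isolated sites ranged less, from 2.10 on III and 2.26 on I to 5.08 on V and 5.73 on X. Counted in bins of 1 Mb, X held between 1 and 11 isolated sites per bin (median 5.5, 18 bins) and V between 2 and 7 (median 5, 21 bins). On I the range was 0 to 8 (median 1, 15 bins), and 2 of its bins held none. Isolated sites were thus found along all 6 chromosomes, and every 1 Mb bin of II, V and X held at least 1.

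**Figure D1:**
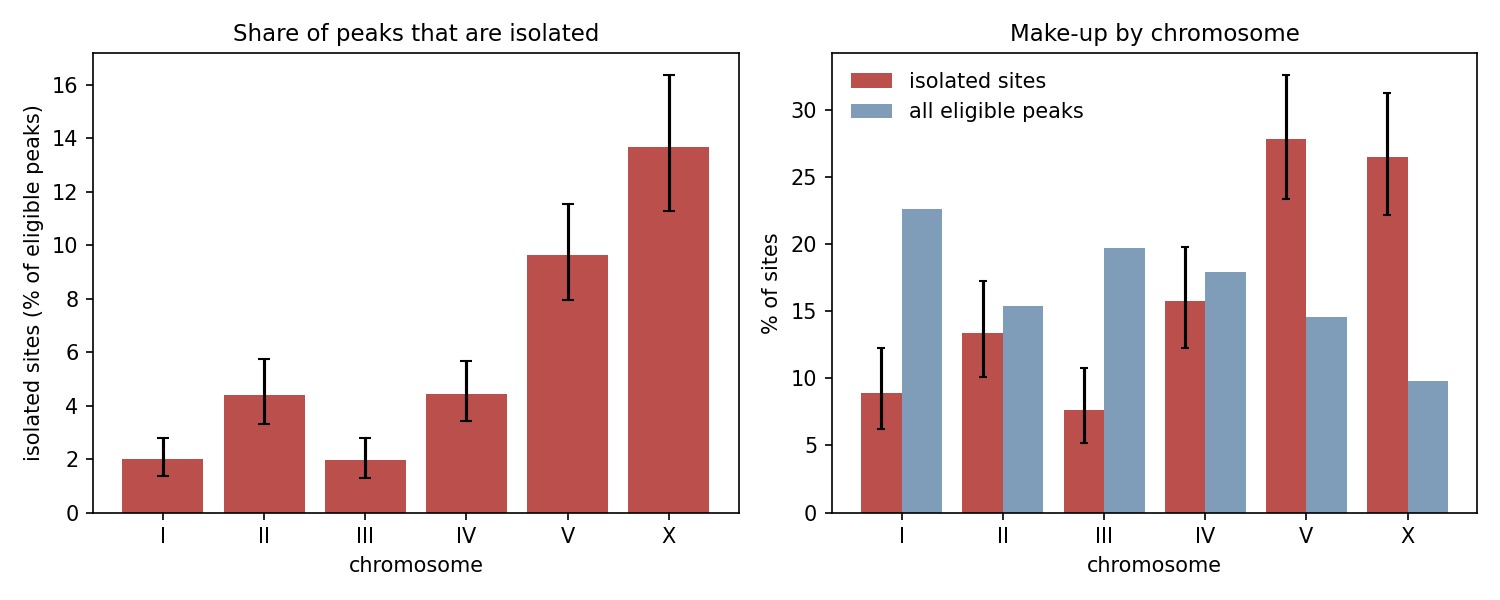
Left, the share of each chromosome's eligible peaks that were isolated (percent, bars with exact 95% intervals). Right, the make-up by chromosome of the 381 isolated sites (red, exact 95% intervals) and of all 7534 eligible peaks (blue). The isolated share is highest on X (13.7%) and V (9.65%), and these chromosomes hold 26.5% and 27.8% of the isolated sites.

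On the autosomes, isolated sites were shared out between arms and centres about as all peaks were. The centre was taken as the central 1/3 of each chromosome, and the arms as the rest. C. elegans arms are richer in repeats and recombine more, and autosome centres hold many conserved and broadly expressed genes. Of the 280 autosomal isolated sites, 193 lay on arms (68.9%, 63.1% to 74.3%), against 65.8% of all eligible autosomal peaks. On III, 24 of 29 were on the arms (82.8%, 64.2% to 94.2%), where 66.8% of its eligible peaks lay. On IV it was 46 of 60 (76.7%, 64.0% to 86.6%, against 64.96% of eligible peaks) and on I 26 of 34 (76.5%, 58.8% to 89.3%, against 65.9%). On V it was 65 of 106 (61.3%, 51.4% to 70.6%, against 63.2%) and on II 32 of 51 (62.7%, 48.1% to 75.9%, against 67.6%). The intervals of the 5 autosomes overlap, and each holds the share of that autosome's eligible peaks.

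On X the centre held more of the isolated sites than of all peaks. Of its 101 isolated sites, 43 lay in the centre (42.6%, 32.8% to 52.8%), which held 29.4% of its eligible peaks. In the X centre 19.8% of peaks were isolated (14.7% to 25.7%), and on the X arms 11.1% (8.56% to 14.2%). The X centre had 7.32 isolated sites per Mb, more than any other segment of the genome in this division. The next were the V centre with 5.89 and the X arms with 4.94, and the lowest was the III centre with 1.09.

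The open space around isolated sites was wide. Their smaller gap, the distance to the nearer neighbour, had a median of 28765 bp (quartiles 23109 and 38388 bp), and the larger gap a median of 51265 bp (quartiles 36152 and 72481 bp). Peaks with closer neighbours had a median of 1309 bp to the nearest one. In the whole list, 1472 of 7540 gaps between neighbouring peaks were longer than 20000 bp. They made up 65.4 Mb, or 65.3% of the 100.1 Mb between chromosome starts and the furthest peak ends. Most of these long gaps lay between groups of peaks. Of the 1472, 824 had no isolated site at either end, 534 had 1 at a single end and 114 ran from 1 isolated site to the next.

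Isolated sites stood singly about as often as they followed each other. Of the 381, 195 (51.2%) had no isolated site as their direct neighbour. The other 186 formed 72 runs of consecutive isolated sites, of which 41 held 2 sites and 23 held 3. The longest run was on X, with 6 sites between 6377787 and 6804989, and 3 of these overlapped both replicates. It lay in a stretch of 494 kb without any other called peak. The next, of 5 sites, was also on X, from 8200843 to 8368841, and again 3 overlapped both replicates.

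The widest spacing was on the right arm of chromosome IV, the arm that carries large clusters of piRNA genes. A run of 4 isolated sites there, from 15801360 to 16361566, was all that was called in 722 kb. The 3 isolated sites with the largest smaller gaps in the genome belonged to it. The site at IV:15984037-15984905 had gaps of 182215 and 254905 bp, the latter the longest gap of the list. It scored 90.5 in replicate 1 and 241 in replicate 2, both below the medians of isolated sites in these lists, 656 and 498. Its neighbour at IV:15801360-15801821 had a peak in replicate 2 only (score 84.6), and that at IV:16239811-16240418 in replicate 1 only (score 164). The fourth site, at 16361421, had none. In the last 30% of chromosome IV, a limit set after these values were seen, 26 of 330 eligible peaks were isolated (7.88%). Of these 26, 7 overlapped both replicates and 14 neither. In the first 70% the isolated peaks were 34 of 1020 (3.33%), of which 16 overlapped both replicates and 12 neither. Over all eligible peaks of the genome, 57.6% overlapped both replicates and 23.3% neither. For peaks with closer neighbours on the 2 arms of IV the shares were 58.5% and 24.3%. The replicate support of other peaks in the last 30% is not given here, so low support there cannot be ascribed to isolation.

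Isolated sites covered the whole range of peak strength except its very top. The score of a peak is that of the authors' caller, on an unstated scale, and is used here as a rank within its list. The 381 sites had scores from 1.44 to 174.81 (median 20.87, quartiles 7.72 and 68.1), in a list that runs from 1.35 to 223.15. Of the isolated sites 208 (54.6%, 49.4% to 59.7%) were in the upper 50% of the series-wide list by score, against 49.8% of peaks with closer neighbours and 50.1% of all eligible peaks. When the list was split by score into steps of 25%, the isolated sites numbered 76, 97, 108 and 100 from the lowest step to the highest, so the weakest step was the least filled.

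Their width was between that of tightly packed and of moderately spaced peaks. The median was 764 bp (quartiles 380 and 1262 bp), against 720 bp (310 and 1344 bp) for peaks with closer neighbours. The latter are a mixture. Peaks whose nearest neighbour was under 1000 bp away, 3208 in all, were 506 bp wide in the median, with 38.1% in the upper 50% by score. The 3945 peaks with the nearest neighbour 1000 to 20000 bp away were 929 bp wide in the median, with 59.3% in the upper 50%. Over all chromosomes, isolated sites thus had a median width between those of packed and moderately spaced peaks. Their share in the upper 50% lay between as well, with an interval that holds the value of the moderately spaced peaks. On X and II isolated sites were the wider of these, with 913 against 882 bp and 971 against 964.5 bp. On I and II more of them were in the upper 50%, with 61.8% against 56.4% and 62.7% against 59.8%. When peaks less than 1000 bp apart were first merged, the median width of isolated sites differed from that of the rest by -223 bp, where it had been 44 bp. Their share in the upper 50%, with score ranks taken anew on the merged list, differed by -5.18 percentage points, where it had been 4.78.

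Width and score rank differed little between 1000 and 20000 bp and were lower beyond. The median width was 921 bp with the nearest neighbour 10000 to 20000 bp away, 870.0 bp at 20000 to 30000 bp (205 isolated sites), 744.5 bp at 30000 to 50000 bp (128 sites) and 495 bp beyond 50000 bp (48 sites). The share in the upper 50% by score was 62.3% (58.1% to 66.3%) at 10000 to 20000 bp. Among isolated sites it was 55.6% in the nearest class, 53.9% in the middle and 52.1% (37.2% to 66.7%) in the farthest. The intervals of the 3 classes of isolated sites overlap.

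**Figure D2:**
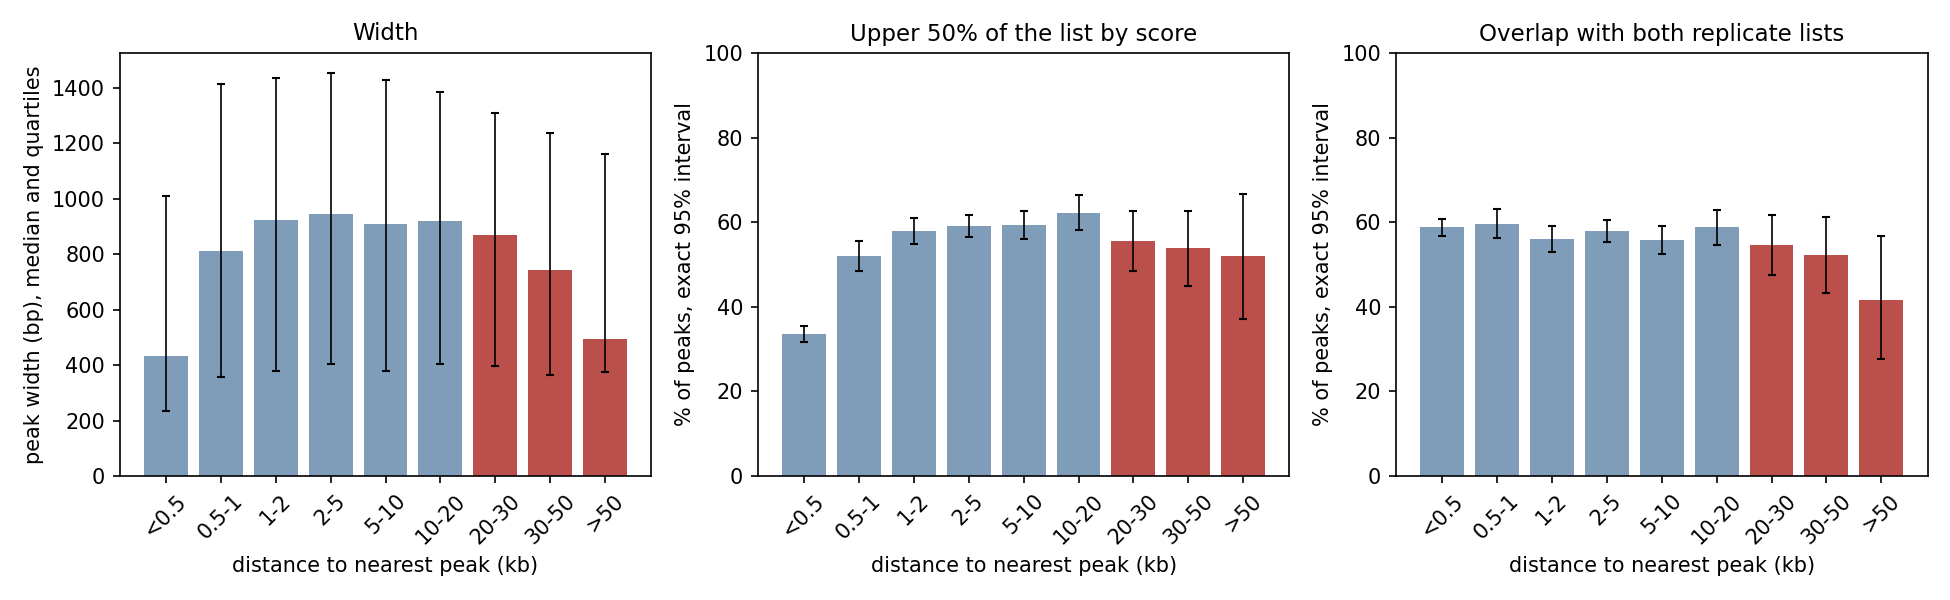
Peaks of the series-wide list by distance to the nearest peak (kb, horizontal axis), with isolated sites in red and peaks with closer neighbours in blue. The bars show the median width in bp with quartiles (left), the share in the upper 50% by score (middle) and the share that overlap both replicates (right), the shares with exact 95% intervals. Median width is 433 bp under 0.5 kb, 921 bp at 10 to 20 kb and 495 bp beyond 50 kb.

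The direction of these differences was not the same on each chromosome. On X, isolated sites had a median width of 913 bp against 649 bp for the peaks with closer neighbours, and on II it was 971 against 750.0 bp. On I it was 926 against 721 bp and on V 738 against 695 bp. On III the isolated sites were the narrower, with 504 against 780.0 bp, and on IV too, with 575 against 696 bp. The share in the upper 50% by score went the same way. The share of isolated sites in the upper 50% was highest on II (62.7%) and I (61.8%) and lowest on IV (43.3%). In the top 25% of the list stood 22 of the 51 isolated sites on II (43.1%, against 27.3% of its other peaks). On IV it was 10 of 60 (16.7%, against 24.9%) and on X 17 of 101 (16.8%, against 12.1%). The top share was also above that of other peaks on I (32.4% against 26.6%), III (31.0% against 27.5%) and V (29.2% against 24.5%). It was thus below that of other peaks on IV alone, and on III it went against the width. The intervals of isolated sites and other peaks overlap on each chromosome.

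Isolated sites were found in both replicates in 199 of 381 cases (52.2%, 47.1% to 57.3%). Overlap means at least 1 shared bp. The share was 57.6% over all eligible peaks and 57.9% (56.8% to 59.1%) for peaks with closer neighbours. A replicate 1 peak lay at 242 isolated sites (63.5%, 58.5% to 68.4%), where 71.5% of all eligible peaks had one. A replicate 2 peak lay at 214 (56.2%, 51.02% to 61.2%), against 62.9% of all. Replicate 1 alone covered 43 sites and replicate 2 alone 15. The remaining 124 (32.5%, 27.9% to 37.5%) had no peak in either list, against 23.3% of all eligible peaks. Of peaks with the nearest neighbour 1000 to 20000 bp away, 57.1% overlapped both replicates and 30.0% neither. A replicate 1 peak lay at 66.6% of them and a replicate 2 peak at 60.4%. Each of these values lies within the interval of isolated sites. With the nearest neighbour under 1000 bp away, 59.0% overlapped both and 13.9% neither.

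Support followed the score closely. The 199 isolated sites found in both replicates scored 66.0 in the median and were 1243 bp wide in the median. For the 43 found in replicate 1 only these medians were 13.4 and 636 bp, and for the 15 found in replicate 2 only they were 8.29 and 461 bp. The 124 found in neither had the lowest medians, a score of 5.82 and 292 bp. Within the upper 50% by score, 190 of 208 isolated sites overlapped both replicates (91.3%, 86.7% to 94.8%), close to the 92.9% (92.04% to 93.7%) of peaks with closer neighbours. In the top 25% all 100 did.

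Among weak peaks the classes differed. In the lower 50% by score, 9 of 173 isolated sites overlapped both replicates (5.20%, 2.41% to 9.65%), and so did 832 of 3590 peaks with closer neighbours (23.2%, 21.8% to 24.6%). In the lowest 25% of the list 0 of 76 isolated sites did, which allows a share of up to 3.95% by a limit of 3 counts (exact upper bound 4.74%), against 354 of 1838 (19.3%, 17.5% to 21.1%). The peaks of the replicate lists are wide, so a weak peak can fall inside the replicate peak of a stronger neighbour. That was so for 677 of the 832 weak peaks with closer neighbours that overlapped both replicates (81.4%). The distance rule leaves isolated sites no such neighbour. The part of such sharing in the difference between the classes was not tested. Split by distance, in classes chosen after the values were seen, the share of weak peaks in both replicates was 37.1% (35.0% to 39.3%) with the nearest neighbour under 1000 bp away. It was 6.15% (4.77% to 7.78%) at 1000 to 5000 bp and 5.50% (3.76% to 7.71%) at 5000 to 20000 bp, and the intervals of both hold the 5.20% of isolated sites. When peaks less than 1000 bp apart were merged before the distance rule, 15.1% of the weak isolated sites overlapped both replicates. Score ranks were taken anew on the merged list, so the weak sites there are not set by the same score limit.

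**Figure D3:**
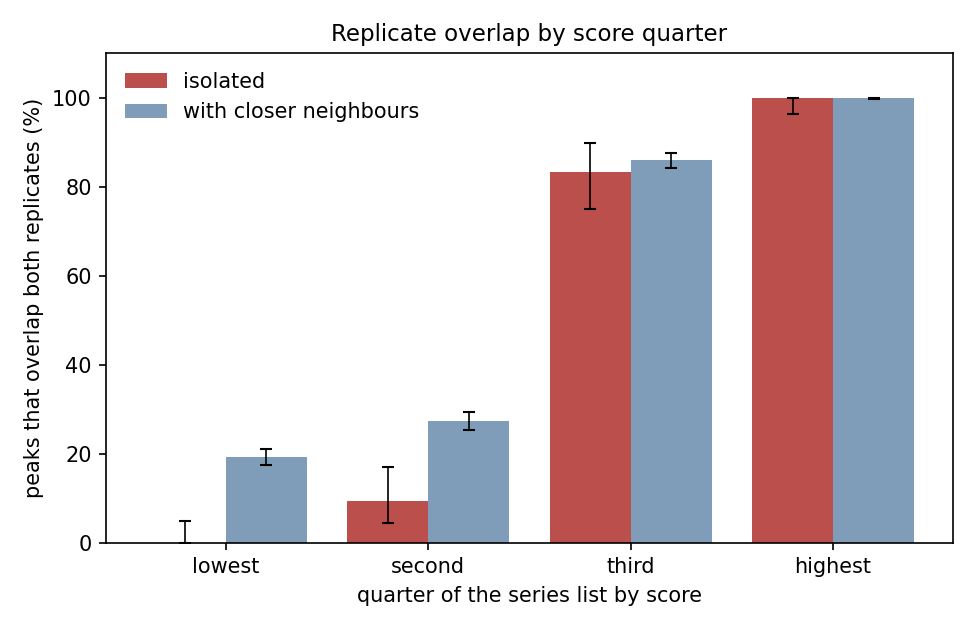
Share of peaks that overlap both replicates (percent, bars with exact 95% intervals) in steps of 25% of the series-wide list by score, for isolated sites (red) and peaks with closer neighbours (blue). In the highest step the shares are 100% and 99.9%, in the next 83.3% and 85.9%, and in the lowest 0 of 76 isolated sites against 19.3%.

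By the distance rule, hardly any replicate peak could hold a second site beside an isolated one, and none did. The 242 sites matched 242 replicate 1 peaks and the 214 sites matched 214 replicate 2 peaks. Among replicate peaks at sites with closer neighbours, 29.1% in replicate 1 and 24.96% in replicate 2 held more than 1 series-wide peak. The isolated peak lay entirely inside the replicate peak in 242 of 242 cases in replicate 1 and 212 of 214 in replicate 2. Its midpoint was a median of 44.25 bp from that of the replicate 1 peak and 44.75 bp from that of the replicate 2 peak. These distances were 55 and 52 bp for peaks with the nearest neighbour 1000 to 20000 bp away. At the 199 sites with both, the replicate peaks always overlapped each other. Their starts differed by a median of 68 bp and their ends by 84 bp.

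In the replicate lists the peaks at isolated sites were of lower rank than those elsewhere. In replicate 1 the median score at isolated sites was 656 (range 54.2 to 3127), against 883 at sites with closer neighbours. The median rank, on a scale where 100 is the highest score of the list, was 43.3 (quartiles 19.2 and 64.8) against 50.7. In replicate 2 the median score was 498 (range 50.2 to 3152) against 640, and the median rank 44.7 (22.8 and 67.8) against 50.9. Many top scores are tied at 3100 in these lists. That value or more was held by 17 of 242 isolated sites in replicate 1 (7.02%, against 13.9% elsewhere) and by 4 of 214 in replicate 2 (1.87%, against 5.09%). The quartiles of both classes overlap widely in both replicates.

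Median ranks differed by chromosome. On X alone the median ranks were 35.4 at isolated sites and 35.3 elsewhere in replicate 1, and 38.2 and 35.8 in replicate 2. On the autosomes together they were 45.9 and 53.5 in replicate 1, and 48.7 and 53.7 in replicate 2, so that without X the difference in replicate 1 was about as large as over all sites. Chromosome IV had the lowest autosomal ranks at isolated sites, 27.3 against 53.1 in replicate 1 (32 sites) and 39.3 against 53.9 in replicate 2 (25 sites). On II the isolated sites ranked higher than the rest, 56.8 against 53.8 in replicate 1 (38 sites) and 63.5 against 53.6 in replicate 2 (33 sites).

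Replicate peaks were also narrower at isolated sites. The median was 2124 bp (quartiles 1821 and 2424 bp) against 2455 bp in replicate 1, and 2181 bp (1935 and 2490 bp) against 2405 bp in replicate 2. Against sites with the nearest neighbour 1000 to 20000 bp away, whose replicate peaks rarely hold a second site, the medians were 2337 bp in replicate 1 and 2314 bp in replicate 2. The median was lower at isolated sites on all 6 chromosomes in replicate 1. In replicate 2 it was lower on I, III, IV and V, and higher on II (2492 against 2393 bp) and X (2200.0 against 2149 bp).

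The replicates ranked the isolated sites alike. Over the 199 sites found in both, Spearman's rho between their scores was 0.909, and 0.886 over the 182 sites below 3100 in both. Over 3225 distinct pairs of replicate peaks at sites with closer neighbours it was 0.857. These are correlations across sites that share 2 libraries, given as a description. The median difference in rank was 6.77 points. Of the 199, 89 stood in the upper 50% of both lists, 94 in the lower 50% of both, and 16 in the upper 50% of 1 list only.

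**Figure D4:**
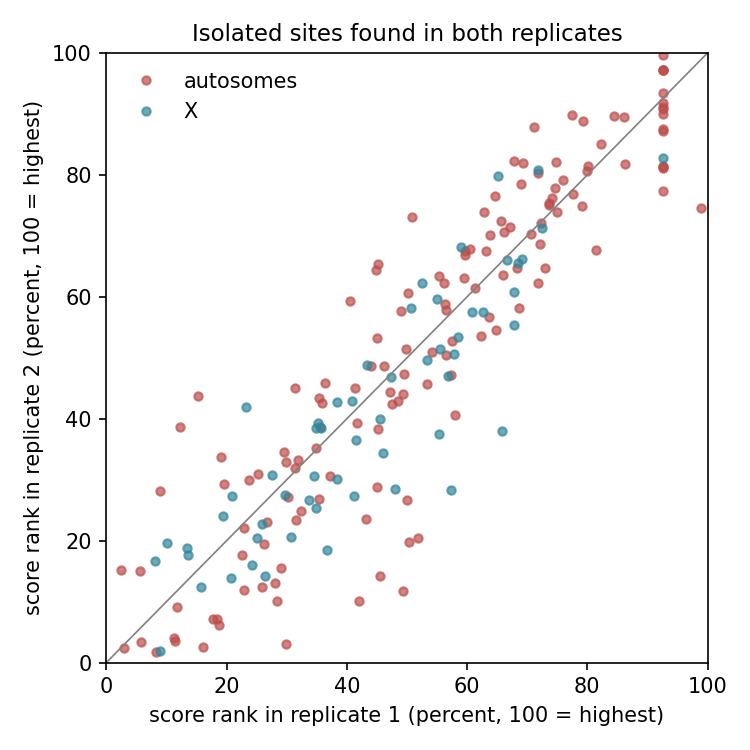
Score rank in replicate 1 (horizontal) and in replicate 2 (vertical), each as a percent with 100 the highest score, for the 199 isolated sites found in both replicates, on autosomes (red) and X (blue-green), with the line of equal rank. The ranks follow the line (rho 0.909), and the column at 92.6 on the horizontal axis is the tied score of 3100 in replicate 1.

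Most replicate peaks at these sites were isolated in their own lists, which largely follows from the distance rule. Of the 242 replicate 1 peaks at isolated sites, 225 (93.0%) had no other replicate 1 peak within 20000 bp, and of the 214 replicate 2 peaks, 204 (95.3%) had none of their own list. Of the 199 sites found in both replicates, 185 (93.0%) were isolated in all 3 lists. Taking the replicate lists as further neighbours, 11 of the 381 sites had another replicate peak within 20000 bp and 370 had none. These shares are largely built in, since nearly all replicate peaks have a counterpart in the series-wide list. They are no separate support for the isolation of the sites.

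The reverse did not hold, as most sites that looked isolated in a replicate had closer neighbours in the longer series-wide list. Replicate 1 had 544 isolated peaks of 3836 (14.2%) and replicate 2 had 576 of 3638 (15.8%). Of these, 225 (41.4%) and 204 (35.4%) were at sites isolated in the series-wide list. A further 116 and 105 corresponded to more than 1 series-wide peak. Another 202 and 262 corresponded to a single series-wide peak with a neighbour within 20000 bp, and 1 and 5 to none. By the way these sites were chosen, their neighbours have no peak in that replicate. Of the 232 neighbours in replicate 1, 21 (9.05%) were in the upper 50% by score, and 196 (84.5%) had no peak in either replicate. In replicate 2, 25 of 306 neighbours (8.17%) were in the upper 50% and 217 (70.9%) had no peak in either replicate.

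On autosomes, replicate support of isolated sites differed between arms and centres. In the centres 61 of 87 overlapped both replicates (70.1%, 59.4% to 79.5%), and on the arms 81 of 193 (42.0%, 34.9% to 49.3%). These intervals do not overlap. For peaks with closer neighbours the shares were 64.6% in centres and 55.3% on arms. The centre share was the higher on all 5 autosomes. It was 87.5% against 50.0% on I, 73.7% against 56.2% on II, 60.0% against 41.7% on III and 57.1% against 32.6% on IV. On V it was 29 of 41 in the centre (70.7%) and 25 of 65 on the arms (38.5%). The centres of I and III hold 8 and 5 isolated sites, so their shares are imprecise.

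Score moved with this contrast. In the autosome centres 70.1% of isolated sites were in the upper 50% by score, and on the arms 46.1%. Autosomal peaks with closer neighbours differed in the same direction, with 56.7% in the centres and 46.6% on the arms. The median width of isolated sites was 1140.0 bp in the centres and 585 bp on the arms, against 957 and 629.5 bp for the other peaks. Within the upper 50%, 60 of 61 autosomal isolated sites in centres (98.4%, 91.2% to 99.96%) and 77 of 89 on arms (86.5%, 77.6% to 92.8%) were found in both replicates. Within the lower 50% it was 1 of 26 (3.85%, 0.0973% to 19.6%) and 4 of 104 (3.85%, 1.06% to 9.56%). In each score class the intervals of isolated sites on arms and in centres overlap, and the part of score in the contrast was not tested. For autosomal peaks with closer neighbours the shares in both replicates were 94.7% in centres and 92.5% on arms within the upper 50%. Within the lower 50% they were 25.3% and 22.9%.

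On X the shares were close to each other, with 24 of 43 in the centre (55.8%, 39.9% to 70.9%) and 33 of 58 on the arms (56.9%, 43.2% to 69.8%). By whole chromosome, the share found in both replicates was 38.3% for isolated sites and 60.5% for other peaks on IV, 44.8% and 59.8% on III, and 50.9% and 53.6% on V. On I the shares were 58.8% and 58.7%. On II (62.7% against 58.6%) and X (56.4% against 52.0%) the isolated sites had the higher share. The intervals of isolated sites and other peaks were apart on IV alone (26.1% to 51.8% and 57.7% to 63.1%).

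**Figure D5:**
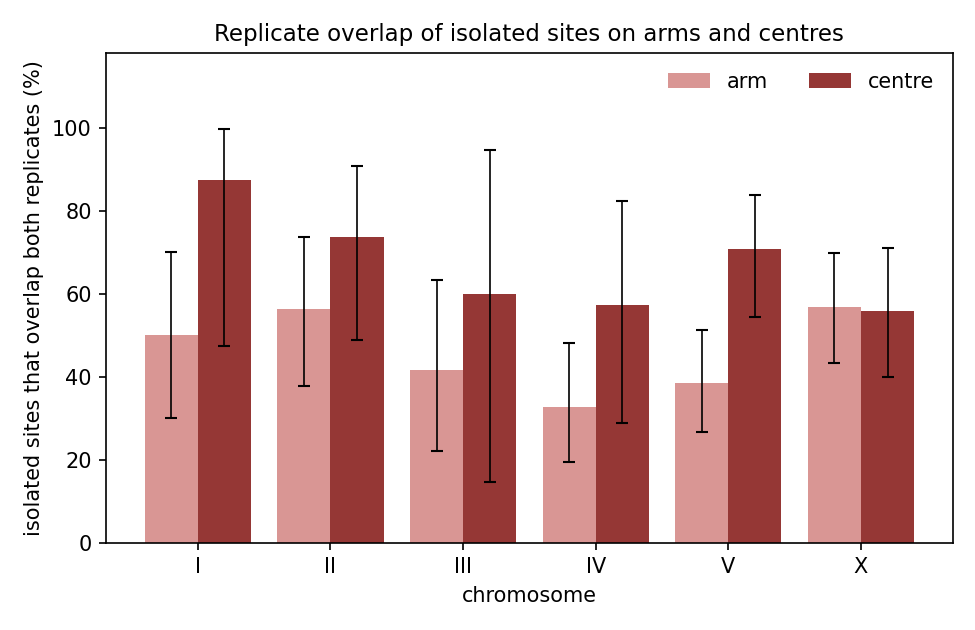
Share of isolated sites that overlap both replicates (percent, bars with exact 95% intervals) on the arms (light) and in the centre (dark) of each chromosome. On the 5 autosomes the centre is the higher, for example 70.7% against 38.5% on V, and on X the values are 55.8% and 56.9%.

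The strongest isolated site was at II:346996-348639, with a series-wide score of 174.81, the rank of 37 in the list. It lay 55260 bp from its left and 36772 bp from its right neighbour and stood at the tied score of 3100 in both replicates. Next came I:14404894-14406551 (score 169), also at 3100 in both, and V:7059714-7061224 (score 160), with 3100 in replicate 1 and 2362 in replicate 2. The site at III:131053-132375 (score 158) had 2477 and 1705, and IV:9931543-9933034 (score 156) had 3100 and 3152. These 5 sites are the strongest isolated sites of their chromosomes.

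The list of the 10 strongest was completed by V:10133400-10135027, II:13368382-13370127, III:1142438-1143777, I:14162756-14164018 and IV:2176958-2178510, with scores from 142 to 149.88. All 10 overlapped both replicates and were isolated in all 3 lists. They were 1263 to 1746 bp wide, and 7 of them lay on arms. The strongest isolated site on X came at rank 21 among the isolated sites. It was at X:15006174-15007821, with a score of 126, 3100 in replicate 1 and 1834 in replicate 2. The strongest site without a peak in either replicate was at IV:6704774-6705160, with a score of 20.8, and it was 387 bp wide. Of the 208 isolated sites in the upper 50% by score, 4 had no replicate peak (1.92%, 0.526% to 4.85%). The share was 1.09% for peaks with closer neighbours in the upper 50%, which lies within that interval.

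At the limit itself, the 3 sites just inside had smaller gaps of 20080, 20133 and 20164 bp and scores of 10.8, 35.8 and 8.24. The first, at II:10926012-10926696, and the second, at V:6234539-6235337, overlapped both replicates, and the third, at V:1285537-1285928, neither. The 3 peaks just outside had gaps of 19997, 19949 and 19913 bp and scores of 10.8, 55.3 and 102. The first of these overlapped neither replicate and the other two both.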

How the data were processed

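HTZ-1 ChIP-seq peak lists were used from 2 ChIP samples and from the series as a whole. Per the file headers, positions are on WormBase WS220. Per the source column of the deposited files, the replicate lists came from MACS and the series-wide list from MACS v2. The submitters' processing notes name BWA and ce10. Thresholds, read filters, the role of the input and how the series-wide list was made are not given in the sources used here. Each peak has a deposited score from the authors' caller, from 50.1 to 3228 and 50.2 to 3233 in the replicates.

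Samples were grouped by title. Distances between peak edges, overlaps, medians and exact (Clopper-Pearson) binomial intervals at 95% were computed in Python 3.11.15 with pandas 2.3.3 and scipy 1.17.1, and the distance and overlap steps were tested on simulated lists. Arms and centres were set on the span up to the furthest peak end in any list. Sites and classes were chosen with earlier results of these data known. The sites named are the 10 highest-scoring isolated sites in both replicates, the highest on each chromosome and with no replicate peak, the 3 with the largest smaller gap, and 3 on each side of the limit, and further sites of the runs and of chromosome IV were named after their values were seen. No test was run between isolated and other peaks. Alternatives changed the distance limit, the measure of distance, the peaks used, the overlap and the arm limits.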

Additional observations from a re-analysis of the deposited data

How the results depend on the processing

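No paired analysis was possible because the values come from peak lists of the ChIP samples alone and from no test between groups. In all, 113 alternative values were computed for 12 results. Of these, 5 changed sign and were counted apart, whether inside the 95% interval of the main value or beyond it. Of the rest, 84 stayed within that interval (for the number of sites, within 1.5 times) and 24 moved beyond it. For differences between isolated and other peaks, the interval takes in the spread of the isolated sites alone. The number of isolated sites was 935, 583 and 176 at limits of 10000, 15000 and 30000 bp, 572 with the top-scoring 50% of peaks and 576 in replicate 2 alone. The share on X was 21.2% at 10000 bp and 33.0% at 30000 bp. The share of autosomal sites on arms was 75.4% at 30000 bp, 63.1% in the upper 50% by score and 50.4% with the central 1/2 as centre. Median width was 1006 bp in the upper 75% by score, 1255 bp in the upper 50% and 895 bp with peaks under 1000 bp apart merged. The share in the upper 50% was 67.2% in the upper 75% and 45.3% after merging. The share in both replicates was 63.8% in the upper 75%, 91.4% in the upper 50%, 38.3% with an overlap of 50% of both peaks and 23.4% with replicate lists limited to their upper 50%. With only 1 replicate required, it was 56.2% without replicate 1 and 63.5% without replicate 2. The median rank in replicate 1 was 50.8 in the upper 50% by score. The difference in median width between isolated and other peaks, 44 bp, was 170.0 bp at 10000 bp, and negative at 30000 bp (-22 bp), in the upper 75% (-36.5 bp), in the upper 50% (-88 bp) and after merging (-223 bp). The difference in the share of the upper 50% was 10.4 percentage points at 10000 bp and -5.18 after merging. Score ranks were taken anew on the merged list, so its upper and lower 50% are not those of the main list. After merging, 15.1% of weak isolated sites overlapped both replicates. The share in both replicates was lower for isolated sites than for other peaks under all 9 alternatives run on that difference, with differences from -8.40 to -1.69 percentage points. Beyond the steps that remove peaks, the cause of these shifts was not tested. The unknown read depth limits what can be said of weak sites.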

Other observations

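Of the 12 chromosome-end peaks that were left out, 3 had their only neighbour more than 20000 bp away. These were the first peak of III (30984 bp, score 46.4), the last of IV (24980 bp, score 7.54) and the last of V (29353 bp, score 4.65). At the other 9 ends the gap was between 77 and 16529 bp. The peaks that flank isolated sites had a score share close to that of all eligible peaks. Of 720 distinct flanking peaks, counted 762 times, 52.5% were in the upper 50% by score and 54.1% overlapped both replicates. Over all eligible peaks these shares were 50.1% and 57.6%. Isolated sites themselves made up 228 of the 762 counts.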
